A study of Mus musculus with 7 samples.

Results

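The proteasome genes of mouse somatic cell nuclear transfer embryos were taken as all rows whose symbol is Psma, Psmb, Psmc, Psmd, Psme, Psmf or Psmg followed by a digit. The rule took 50 of the 24319 rows, of which 49 passed the filter on low values (an FPKM, fragments per kilobase of transcript scaled to library depth, of at least 1 in 2 or more libraries); only Psmb11 did not pass. The RNA came from embryos made by injecting cumulus cells, the somatic cells around an oocyte, into enucleated oocytes. Each of 7 libraries was made from total RNA of a pool of 50 to 100 embryos, and the labels give strain B6D2F1, a wild type genotype and the 2-cell stage for every one. Kdm4a mRNA, which encodes a histone demethylase, had been injected in all 3 groups. Recipient oocytes were fresh in FOC+K (2 libraries), and vitrified and warmed in CROC+K (3 libraries). CROC+K+M (2 libraries) likewise had vitrified and warmed oocytes and was treated with melatonin, a hormone with antioxidant activity, at 10 µM. The treatment protocol shared by all samples also names blastocysts and a vehicle, without saying which library had either. Activation, culture and extraction were the same for all groups in the labels, and no group without Kdm4a mRNA is among them.

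The proteasome is the large protease that breaks down proteins tagged with ubiquitin. Its core particle is a barrel of stacked rings of alpha subunits (Psma genes) and beta subunits (Psmb genes), capped by a regulatory particle whose ATPases (Psmc genes) unfold the substrate and whose other subunits (Psmd genes) bind and remove ubiquitin. Activators (Psme genes) can cap the core in place of the regulatory particle, and dedicated chaperones (Psmg genes for the core, and some Psmd genes for the base) help to build it. In the oocyte and early embryo the proteasome is known for the removal of maternal proteins as development passes to the embryonic genome.

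One library went against its 2-cell label in its marker genes. The marker lists were drawn up with earlier results of these data known, so they are description only. In CROC+K+M replicate 1 the FPKM of the 14 trophectoderm markers summed to 28680, where 0 of them were at 0, and to 76.3 to 171.6 in the other 6 libraries, where 2 to 4 were at 0. Fabp3 gave most of the sum in CROC+K+M replicate 1 (24404), and each of the 14 was highest there. Cdx2, a defining trophectoderm factor, was at 6.97 in that library and listed at 0 in the others. The 10 markers of the 2-cell stage, of which 2 were at 0 in each library, summed to 388.6 there and 176.9 in CROC+K+M replicate 2, to 457.5 and 196.6 in the FOC+K libraries, and to 157.5, 803 and 1121 in CROC+K replicates 1, 2 and 3. The 11 oocyte and maternal markers, with 0 at 0, summed to 4077 and 4150 with melatonin, below the 5056 to 6697 of the other 5 libraries. Oosp1 gave most of each sum (3072 and 3193 with melatonin). Oosp1, Bmp15, Gdf9 and Zp2 were lower in both melatonin libraries than in the other 5, and the other markers of this list were not. Cumulus markers summed to 21.8 to 39.3 (28.9 in CROC+K+M replicate 1), and inner cell mass markers to 43.7 to 74.9 (73.0 in that library). Pou5f1 gave most of each inner cell mass sum. Nanog (3.98) and Gata6 (12.3) were highest in CROC+K+M replicate 1, and the other inner cell mass markers were not. Over the tested genes CROC+K+M replicate 1 had a Pearson correlation of 0.851 to 0.875 with the others, which reached 0.908 to 0.974 among themselves. CROC+K was also uneven: Rn45s, the ribosomal RNA precursor, was at 2114 in replicate 1 and at 266 and 237 in replicates 2 and 3, against 1183 and 1047 in FOC+K and 224 and 175 in CROC+K+M, and Kdm4a was at 497, 4051 and 4949, against 2014 and 816, and 2797 and 689. Results are therefore given with and without CROC+K+M replicate 1, and CROC+K replicates are given apart. In pooled embryos, fewer cells of a type and less RNA per cell cannot be told apart.

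The highest and lowest values of many proteasome genes lay in these uneven libraries. CROC+K+M replicate 1 held the highest value of 35 of the 49 tested genes, while 26.7% of all 12271 tested genes had their highest value there. In 15 of the 49 (30.6%) it was at least 2-fold above every other library, against 10.2% of all tested genes. The FPKM of all rows summed to 1017995 in that library and to 552356 to 814958 in the others. The proteasome genes made up 1.08% of the sum there and 0.725% in CROC+K+M replicate 2. Their share was 0.791% and 0.807% for FOC+K, and 0.940%, 0.461% and 0.536% for CROC+K. CROC+K replicates 2 and 3 were both below replicate 1 in 29 of the 49 (59.2%), against 39.2% of tested genes, and below all other 5 libraries in 14 (28.6%), against 12.9%. Of these 14 genes, 9 encode core subunits, 4 regulatory subunits and 1 a core assembly chaperone. These libraries were singled out after their values were seen.

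**Figure D1:**
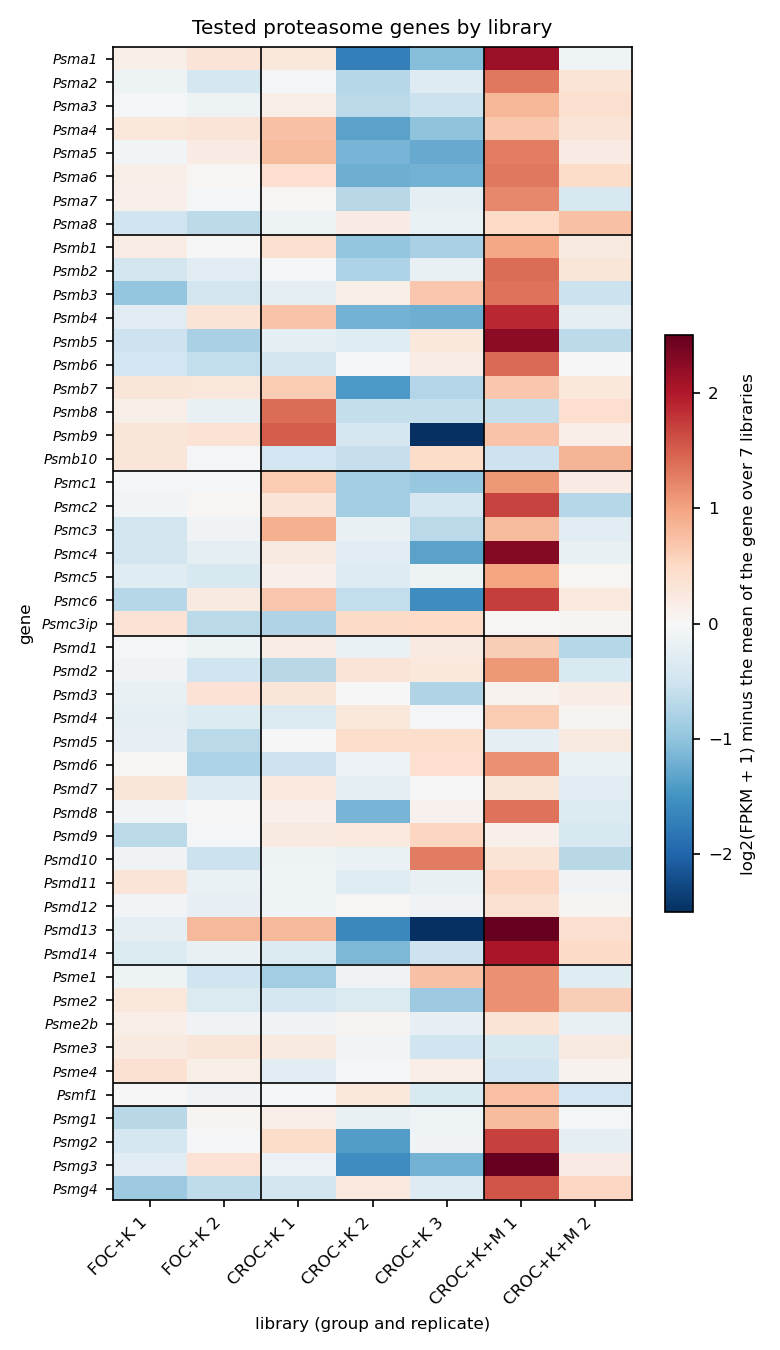
Each row is a tested proteasome gene and each column a library; colour gives log2(FPKM + 1) minus the gene's mean over the 7 libraries, clipped at -2.5 and 2.5, with lines between gene classes and groups. CROC+K+M replicate 1 is the highest library for 35 of the 49 genes, and CROC+K replicates 2 and 3 are both below replicate 1 for Psma1 to Psma7.

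The stretch of 250 bases before the annotated start could be read for 42 of the 50 genes, which lie on 14 chromosomes, from RefSeq promoter sequences of build GRCm38.p6 (the table was made with build mm9 and holds no coordinates). They are shown because subunit genes from different chromosomes were high and low in the same libraries. The stretches below belong to a core subunit, a regulatory subunit with deubiquitinase activity, a ubiquitin receptor and the core assembly chaperones Psmg1 and Psmg4, all without an annotated exon in the window. Each is written 5′ to 3′ along the gene's strand, with the NF-Y box CCAAT (or ATTGG on the other strand) and the ETS site CCGGAAG (or CTTCCGG) in capitals.
Psma6 (chr12:55383972-55384221, plus strand): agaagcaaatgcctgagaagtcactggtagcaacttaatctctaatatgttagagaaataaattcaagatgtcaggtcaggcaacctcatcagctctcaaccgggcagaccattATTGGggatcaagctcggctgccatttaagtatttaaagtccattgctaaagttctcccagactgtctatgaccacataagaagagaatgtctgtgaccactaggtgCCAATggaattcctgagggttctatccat
Psmd14 (chr2:61711444-61711693, plus strand): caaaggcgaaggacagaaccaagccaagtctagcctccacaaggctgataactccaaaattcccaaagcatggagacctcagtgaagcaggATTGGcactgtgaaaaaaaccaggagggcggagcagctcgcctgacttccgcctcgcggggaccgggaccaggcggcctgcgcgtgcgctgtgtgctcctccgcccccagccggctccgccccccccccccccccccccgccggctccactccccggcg
Psmd4 (chr3:95042615-95042864, minus strand): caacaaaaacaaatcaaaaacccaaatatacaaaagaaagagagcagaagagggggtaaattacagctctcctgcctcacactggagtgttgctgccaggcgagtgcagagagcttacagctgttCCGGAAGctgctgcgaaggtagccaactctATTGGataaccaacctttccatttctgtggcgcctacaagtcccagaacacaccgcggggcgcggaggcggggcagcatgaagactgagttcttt
Psmg1 (chr16:95990961-95991210, minus strand): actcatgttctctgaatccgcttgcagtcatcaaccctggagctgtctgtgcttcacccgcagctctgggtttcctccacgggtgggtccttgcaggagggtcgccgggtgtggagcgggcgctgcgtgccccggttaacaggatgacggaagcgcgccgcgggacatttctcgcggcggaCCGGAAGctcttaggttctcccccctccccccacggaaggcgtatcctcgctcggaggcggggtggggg
Psmg4 (chr13:34162714-34162963, plus strand): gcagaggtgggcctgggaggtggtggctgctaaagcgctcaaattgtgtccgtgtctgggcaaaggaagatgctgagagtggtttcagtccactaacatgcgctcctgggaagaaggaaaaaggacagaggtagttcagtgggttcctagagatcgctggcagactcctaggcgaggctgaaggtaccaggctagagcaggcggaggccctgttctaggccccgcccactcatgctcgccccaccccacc

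The stretch before the upstream of the 2 annotated starts of Psma6 held 2 NF-Y boxes, that of Psmd14 held 1, that of Psmd4 held 1 NF-Y box and 1 ETS site, that of Psmg1 held 1 ETS site, and that of Psmg4 held neither. Searched on both strands in windows of the same length, and counting a gene when the window of any of its annotated starts held the letters, CCGGAAG was found for 13 of the 42 proteasome genes (31.0%; for Psma6 only before its other start, which is not shown), in 15.3% of tested genes and in 7.83% of all genes with a promoter. CCAAT was found in 15 (35.7%), against 41.5% and 37.5%. The GC box GGGCGG was found in 22 (52.4%), against 60.1% and 35.4%. The antioxidant response element core TGANNNNGC, a kind of motif bound by the Nrf factors that switch on proteasome genes, was found in 17 (40.5%), against 41.5% and 38.7%, and its full form TGACTCAGC, which contains that core, in 0, against 0.396% and 0.426%. These are matches of letters in this window only.

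RNA of the standard alpha subunits, which form the outer rings and the gate of the core, was found in every library, at an FPKM of 35.8 to 889.9. In the following, values are FPKM in order of replicate number within each group. Psma1 was at 133 and 149 in the FOC+K libraries, at 146, 35.8 and 56.5 in those of CROC+K, and at 527 and 111 in those of CROC+K+M. Psma4 was at 253 and 259.7 in the FOC+K libraries, at 343, 81.9 and 102 in those of CROC+K, and at 334 and 261 in those of CROC+K+M. CROC+K replicates 2 and 3 were the lowest of the 7 libraries for both genes, while replicate 1 lay near or above FOC+K. Psma6 was at 247 and 226 in the FOC+K libraries, at 295, 94.1 and 97.4 in those of CROC+K, and at 556 and 305 in those of CROC+K+M, again with CROC+K replicates 2 and 3 below all others and both melatonin libraries above all others. Psma2 was at 325 and 261 in the FOC+K libraries, at 348, 215 and 283 in those of CROC+K, and at 889.9 and 449.7 in those of CROC+K+M. Psma3 was at 274 and 261 in the FOC+K libraries, at 321, 177 and 196 in those of CROC+K, and at 508 and 376 in those of CROC+K+M. For Psma2 and Psma3 too, both melatonin libraries were above the other 5, by a wider margin in replicate 1 than in replicate 2. Psma7, the highest alpha subunit in FOC+K, was at 411 and 367 in the FOC+K libraries, at 387, 232 and 324 in those of CROC+K, and at 872 and 285 in those of CROC+K+M. Here the second melatonin library lay below both FOC+K libraries and within CROC+K. Psma5, not named by its p-value in any comparison, ranged from 37.0 to 219 with the same low pair of CROC+K libraries.

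Differences are on the log2(FPKM + 1) scale, which understates changes of low genes; the melatonin difference is CROC+K+M minus CROC+K and the vitrification difference CROC+K minus FOC+K. The melatonin difference was 1.56 ± 0.53 (limma SE) for Psma6, 1.19 ± 0.37 for Psma2, 0.96 ± 0.33 for Psma3 and 1.84 ± 0.75 for Psma1. Without CROC+K+M replicate 1 these were 1.12, 0.70, 0.75 and 0.73. Adjusted p by limma with the Benjamini-Hochberg method was 0.425, 0.408, 0.423 and 0.46, so none passed 0.05. With vitrified oocytes the difference from FOC+K was -1.06 ± 0.75 for Psma1 and -0.84 ± 0.57 for Psma4 (adjusted p = 0.9996 in limma for both), and with the 3 libraries of high Rn45s only, where CROC+K has replicate 1 alone, 0.056 and 0.42.

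Psma8, the germ cell alpha subunit that takes the place of Psma7 in spermatocytes, was near the lower limit of the table. It was at 0.630 and 0.457 in the FOC+K libraries, at 1.10, 1.67 and 1.04 in those of CROC+K, and at 2.25 and 2.83 in those of CROC+K+M. The groups did not overlap, with FOC+K lowest, CROC+K between and CROC+K+M highest, and Psma8 made up at most 0.984% of the summed Psma7 and Psma8 FPKM. Both FOC+K libraries were below an FPKM of 1, so Psma8 passed the filter only through the libraries of vitrified oocytes. The filter thus favoured a higher value there, and its p and its group order are description only, here and in the counts below. CROC+K+M minus FOC+K was 1.20 ± 0.37 with all libraries and 1.32 when CROC+K+M replicate 1 was left out (limma unadjusted p = 0.013 and 0.0251, adjusted p = 0.736 and 0.937).

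The catalytic beta subunits cut after different kinds of residue and did not share one profile. Psmb5, the chymotrypsin-like subunit, was at 30.1 and 24.3 in the FOC+K libraries, at 36.9, 35.0 and 52.2 in those of CROC+K, and at 206 and 27.2 in those of CROC+K+M. Psmb6, the caspase-like subunit, was at 213 and 195 in the FOC+K libraries, at 217, 292 and 338 in those of CROC+K, and at 795 and 302 in those of CROC+K+M. For both genes all CROC+K libraries were above both FOC+K libraries and CROC+K+M replicate 1 was far above the rest, while CROC+K+M replicate 2 lay within FOC+K for Psmb5 and between CROC+K libraries for Psmb6. Psmb7, the trypsin-like subunit, was at 143 and 141 in the FOC+K libraries, at 181, 42.1 and 69.3 in those of CROC+K, and at 184 and 139 in those of CROC+K+M. It had the profile of the alpha subunits, with CROC+K replicates 2 and 3 below all other libraries. The vitrification difference was 0.57 ± 0.73 for Psmb5, 0.44 ± 0.43 for Psmb6 and -0.80 ± 0.55 for Psmb7, and between CROC+K+M and CROC+K the difference was 0.87 ± 0.73, 0.82 ± 0.43 and 0.97 ± 0.55. Without CROC+K+M replicate 1 the latter were -0.56, 0.12 and 0.77, so Psmb5 changed sign. None passed the threshold in limma.

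Among the structural beta subunits, Psmb2 was at 295 and 335 in the FOC+K libraries, at 396, 237 and 355 in those of CROC+K, and at 1071 and 495 in those of CROC+K+M. Psmb1 was at 371 and 326 in the FOC+K libraries, at 433, 166 and 186 in those of CROC+K, and at 645 and 385 in those of CROC+K+M. Psmb3 was at 209.8 and 298 in the FOC+K libraries, at 348, 452 and 649.7 in those of CROC+K, and at 1055 and 283 in those of CROC+K+M. Psmb3 stood apart: all CROC+K libraries were above FOC+K, with replicates 2 and 3 highest after CROC+K+M replicate 1, whereas for Psmb1 and Psmb2 replicate 2 was the lowest library. With vitrified oocytes the difference from FOC+K was 0.90 ± 0.55 for Psmb3 and -0.55 ± 0.45 for Psmb1. The melatonin difference was 1.18 ± 0.39 for Psmb2 and 1.06 ± 0.45 for Psmb1, and 0.62 and 0.69 without replicate 1. For Psmb3 it was 0.22 ± 0.55, and -0.72 without replicate 1. Psmb4, the lowest of the 14 standard core subunits in CROC+K replicates 2 and 3 and in CROC+K+M replicate 1, ranged from 16.5 to 149.

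Over the 14 standard core subunits (Psma1 to Psma7 and Psmb1 to Psmb7), the median FPKM was 230.2 and 243 for FOC+K, 308, 130.3 and 144 for CROC+K, and 542 and 284 for CROC+K+M. The subunits of a core are present in equal numbers in the assembled particle, and their transcripts were not: the highest was 13.7 and 15.1 times the lowest for FOC+K, 11.8, 26.6 and 39.5 times for CROC+K, and 7.20 and 18.2 times for CROC+K+M. CROC+K replicates 2 and 3 thus had both the lowest medians and the widest spread among subunits. Psmb5 was the lowest standard core subunit in FOC+K, CROC+K replicate 1 and CROC+K+M replicate 2.

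The immunoproteasome subunits, which replace the standard catalytic subunits in immune cells and under interferon, were at low levels throughout. Psmb8 was at 0.680 and 0.329 in the FOC+K libraries, at 2.96, 0 and 0 in those of CROC+K, and at 0 and 1.02 in those of CROC+K+M. Psmb9 was at 9.30 and 9.74 in the FOC+K libraries, at 23.0, 5.27 and 0.353 in those of CROC+K, and at 12.8 and 8.39 in those of CROC+K+M. Psmb10 was at 7.17 and 5.52 in the FOC+K libraries, at 3.78, 3.45 and 8.20 in those of CROC+K, and at 3.63 and 11.04 in those of CROC+K+M. Of the 7 libraries CROC+K replicate 1 was the highest for Psmb8 and Psmb9 and CROC+K+M replicate 2 for Psmb10, and the groups overlapped for all 3 genes. Taken as whole fragments from the steps between low values, each within 0.06 of a whole number, Psmb8 rests on 3 and 2 fragments for FOC+K, 15, 0 and 0 for CROC+K, and 0 and 7 for CROC+K+M. The 3 genes gave 4.24% and 4.15% of the catalytic FPKM (Psmb5 to Psmb10) for FOC+K, 6.41%, 2.31% and 1.83% for CROC+K, and 1.36% and 4.18% for CROC+K+M. Psmb11, the thymus-specific catalytic subunit, was at 0.118 and 0.0859 in the FOC+K libraries, at 0.103, 0.312 and 0 in those of CROC+K, and at 0.0470 and 0.646 in those of CROC+K+M and was not tested.

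The base ATPases (Psmc1 to Psmc6) thread the substrate into the core. Their median FPKM was 35.7 and 47.1 for FOC+K, 69.9, 32.7 and 31.4 for CROC+K, and 124.6 and 42.8 for CROC+K+M. CROC+K+M replicate 1 was highest and CROC+K replicates 2 and 3 were lowest, as for the core. Psmc1 was at 58.7 and 58.9 in the FOC+K libraries, at 95.2, 33.1 and 31.3 in those of CROC+K, and at 131 and 70.6 in those of CROC+K+M. Psmc4, the lowest ATPase in every library but CROC+K+M replicate 1, was at 16.8 and 19.6 in the FOC+K libraries, at 27.5, 19.2 and 8.74 in those of CROC+K, and at 119 and 20.5 in those of CROC+K+M. Psmc6 was at 32.5 and 63.0 in the FOC+K libraries, at 86.4, 35.2 and 17.8 in those of CROC+K, and at 182 and 64.5 in those of CROC+K+M. In all 3 the second melatonin library was within a range set by the libraries without melatonin. Psmc5 was at 33.0 and 30.6 in the FOC+K libraries, at 44.9, 32.4 and 37.1 in those of CROC+K, and at 82.3 and 42.1 in those of CROC+K+M. Psmc3 was at 38.5 and 50.3 in the FOC+K libraries, at 100.2, 46.9 and 33.3 in those of CROC+K, and at 92.7 and 43.6 in those of CROC+K+M. Psmc5 varied little outside CROC+K+M replicate 1, and Psmc3 had its highest value in CROC+K replicate 1. With melatonin the difference from CROC+K was 1.52 ± 0.73 for Psmc4, 1.49 ± 0.70 for Psmc6 and 1.04 ± 0.52 for Psmc1, and 0.28, 0.75 and 0.60 without CROC+K+M replicate 1. The vitrification difference was -0.34 ± 0.52 for Psmc1, 0.24 ± 0.34 for Psmc5 and 0.29 ± 0.51 for Psmc3. None of these passed in limma.

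In the rest of the regulatory particle, Psmd14, the lid deubiquitinase that frees ubiquitin before the substrate is degraded, was the gene with the smallest p among the regulatory subunits. It was at 43.5 and 48.6 in the FOC+K libraries, at 43.8, 24.8 and 38.2 in those of CROC+K, and at 231 and 77.5 in those of CROC+K+M. Both melatonin libraries were above all 5 libraries without melatonin, and CROC+K replicate 2 was lowest. Between CROC+K+M and CROC+K the difference was 1.92 ± 0.48 (unadjusted p = 0.00421, limma adjusted p = 0.408), and with CROC+K+M replicate 1 left out it was 1.14 ± 0.38 (unadjusted p = 0.0213, limma adjusted p = 0.558). Psmd4, a ubiquitin receptor, was at 117 and 108 in the FOC+K libraries, at 107, 168 and 134 in those of CROC+K, and at 214 and 146 in those of CROC+K+M. Psmd2, a scaffold of the base, was at 17.3 and 12.7 in the FOC+K libraries, at 10.9, 23.3 and 22.2 in those of CROC+K, and at 39.9 and 13.8 in those of CROC+K+M. CROC+K+M replicate 1 was highest for both, and CROC+K overlapped both other groups. CROC+K+M minus FOC+K was 0.64 ± 0.33 for Psmd4 and 0.86 ± 0.53 for Psmd6, a lid subunit at 59.6 and 33.8 in the FOC+K libraries, at 40.3, 52.8 and 78.1 in those of CROC+K, and at 129 and 52.0 in those of CROC+K+M. Without CROC+K+M replicate 1 these were 0.37 and 0.21. Psmd13, a lid subunit, was at 5.50 and 12.4 in the FOC+K libraries, at 12.4, 1.52 and 0 in those of CROC+K, and at 51.3 and 9.07 in those of CROC+K+M. It is listed at 0 in CROC+K replicate 3, and whether that is a true absence was not tested. Its difference between CROC+K+M and CROC+K, 2.83 ± 1.11 and 1.64 without CROC+K+M replicate 1, rests in part on that 0 and is given as a value only. Of the other lid and base subunits, Psmd12 ranged from 82.9 to 125, Psmd7 from 104.7 to 162, Psmd11 from 64.1 to 114, Psmd3 from 17.2 to 38.1, Psmd1 from 22.7 to 57.9 and Psmd8 from 22.2 to 132.

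Psmd5, Psmd9 and Psmd10 encode chaperones that guide assembly of the base and are not part of the finished particle. Counts and medians of the Psmd genes and of the regulatory genes include them. Psmd5 was at 127 and 91.9 in the FOC+K libraries, at 145, 199 and 198 in those of CROC+K, and at 126 and 172 in those of CROC+K+M. Psmd9 was at 19.8 and 31.3 in the FOC+K libraries, at 37.7, 38.6 and 46.9 in those of CROC+K, and at 35.2 and 24.1 in those of CROC+K+M. Psmd10 was at 15.5 and 11.1 in the FOC+K libraries, at 15.1, 14.7 and 42.1 in those of CROC+K, and at 21.2 and 9.88 in those of CROC+K+M. For Psmd5 and Psmd9 all 3 CROC+K libraries were above both FOC+K libraries, and for Psmd9 they were also above both melatonin libraries. Psmd10 overlapped between groups, with CROC+K replicate 3 alone far above the rest. With vitrified oocytes the difference from FOC+K was 0.72 ± 0.30 for Psmd5 (unadjusted p = 0.0429), 0.69 ± 0.32 for Psmd9 (unadjusted p = 0.0634) and 0.66 ± 0.53 for Psmd10, with limma adjusted p = 0.9996 for all. The melatonin difference was -0.28 ± 0.30, -0.47 ± 0.32 and -0.52 ± 0.53, and -0.06, -0.74 and -1.03 without CROC+K+M replicate 1. The median of these chaperones, 0.69 for CROC+K against FOC+K, had the opposite sign to that of the core subunits, -0.33, and kept it with quantile normalization (0.61 and -0.61) and equal FPKM sums (0.36 and -0.65). Within the 3 libraries of high Rn45s both were above 0 (0.42 and 0.34).

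Among the activators, Psme1 and Psme2 form the ring known as PA28 alpha and beta, which opens the core without ATP. Psme2 was at 62.2 and 39.8 in the FOC+K libraries, at 37.8, 39.8 and 27.0 in those of CROC+K, and at 114 and 79.2 in those of CROC+K+M. Psme1 was at 12.7 and 9.63 in the FOC+K libraries, at 7.19, 13.0 and 24.0 in those of CROC+K, and at 32.2 and 11.2 in those of CROC+K+M. Both melatonin libraries were above all others for Psme2, but not for Psme1. There FOC+K replicate 1 and CROC+K replicates 2 and 3 exceeded CROC+K+M replicate 2. With melatonin the difference from CROC+K was 1.44 ± 0.33 for Psme2 (unadjusted p = 0.0028, limma adjusted p = 0.408), and 1.18 ± 0.39 without replicate 1 (unadjusted p = 0.0192, limma adjusted p = 0.558). For Psme1 it was 0.50 ± 0.58, and -0.22 without replicate 1. Psme2b, a near copy of Psme2 whose reads may be split with it, was at 1.60 and 1.16 in the FOC+K libraries, at 1.16, 1.42 and 1.01 in those of CROC+K, and at 1.92 and 1.03 in those of CROC+K+M.

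Psme3 encodes PA28 gamma, the nuclear form, and Psme4 encodes PA200, which is known for degrading acetylated histones. Psme3 was at 88.4 and 93.6 in the FOC+K libraries, at 88.4, 71.8 and 53.7 in those of CROC+K, and at 56.9 and 89.2 in those of CROC+K+M. Psme4 was at 114 and 96.2 in the FOC+K libraries, at 72.6, 85.0 and 97.5 in those of CROC+K, and at 61.7 and 92.5 in those of CROC+K+M. Neither gene was highest in CROC+K+M replicate 1, which held the lowest value of Psme4, and both melatonin libraries were below both FOC+K libraries for Psme4. CROC+K+M minus FOC+K was -0.46 ± 0.32 for Psme4 and -0.35 ± 0.35 for Psme3, with limma adjusted p = 0.808 and 0.865. With CROC+K+M replicate 1 left out they were -0.18 and -0.03. Psmf1, the inhibitor PI31, was at 14.7 and 13.8 in the FOC+K libraries, at 14.2, 17.8 and 11.03 in those of CROC+K, and at 25.5 and 10.3 in those of CROC+K+M, and the groups overlapped in every comparison.

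The core assembly chaperones work in pairs, Psmg1 with Psmg2 and Psmg3 with Psmg4, to build the alpha ring. Psmg1 was at 47.8 and 82.1 in the FOC+K libraries, at 87.4, 68.9 and 72.1 in those of CROC+K, and at 136 and 77.0 in those of CROC+K+M. Psmg2 was at 17.4 and 23.6 in the FOC+K libraries, at 33.6, 8.53 and 22.5 in those of CROC+K, and at 80.7 and 20.3 in those of CROC+K+M. CROC+K+M replicate 1 was the highest library for both, and the second melatonin library lay within the range of the libraries without melatonin. Psmg3 was at 5.31 and 8.75 in the FOC+K libraries, at 5.86, 1.57 and 2.35 in those of CROC+K, and at 43.2 and 7.75 in those of CROC+K+M. Psmg4 was at 18.6 and 22.5 in the FOC+K libraries, at 25.7, 42.7 and 28.5 in those of CROC+K, and at 108 and 51.6 in those of CROC+K+M. Both melatonin libraries were above all 5 others for Psmg4, while Psmg3 in CROC+K+M replicate 2 was above CROC+K but below FOC+K replicate 2. Between CROC+K+M and CROC+K the difference was 2.34 ± 0.72 for Psmg3, 1.22 ± 0.39 for Psmg4 and 1.08 ± 0.69 for Psmg2, and 1.17, 0.69 and 0.11 without replicate 1. For Psmg4, CROC+K+M minus FOC+K was 1.82 ± 0.43 (unadjusted p = 0.00314, limma adjusted p = 0.736), and 1.29 ± 0.40 without replicate 1 (unadjusted p = 0.0153, limma adjusted p = 0.937).

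Psmc3ip fits the symbol rule but encodes a cofactor of meiotic recombination that is no proteasome subunit. It was at 114 and 55.6 in the FOC+K libraries, at 52.2, 125 and 127 in those of CROC+K, and at 91.0 and 93.3 in those of CROC+K+M, and the groups overlapped in every comparison.

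**Figure D2:**
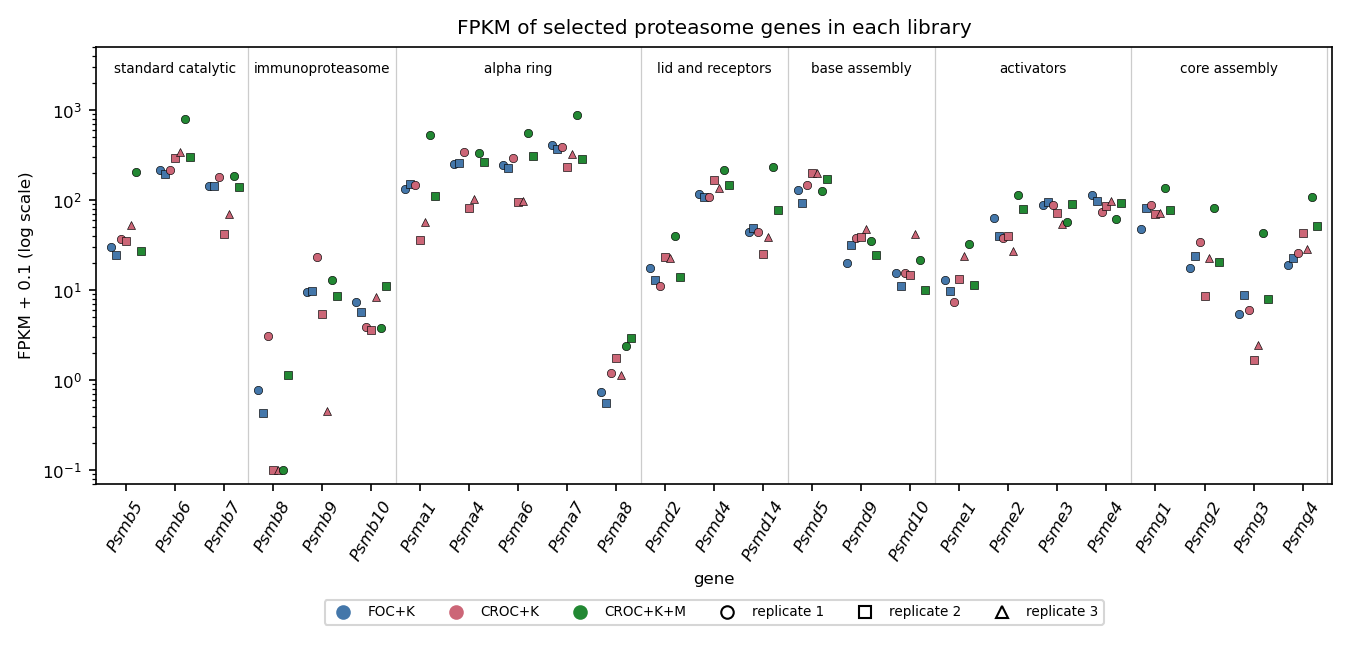
FPKM + 0.1 on a log axis for 25 named proteasome genes, grouped by role, with 1 point per library; colour gives the group and shape the replicate. CROC+K+M replicate 1 (green circles) lies above the other libraries for Psmb5, Psmb6 and all Psmg genes but is lowest for Psme4, and CROC+K replicates 2 and 3 (red squares and triangles) are lowest for Psma1, Psma4 and Psma6.

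Setting CROC+K beside FOC+K addresses the effect of oocyte vitrification. The alpha subunits had lower means in CROC+K for 7 of 8 genes, with a median log2 difference of -0.47, while 9 of 14 Psmd genes had higher means, with a median of 0.12, and Psmd5, Psmd9 and Psmb3 led the higher genes. The base assembly chaperones Psmd5, Psmd9 and Psmd10 are 3 of these 9 Psmd genes. The median was -0.33 over the 18 tested core genes, 0.05 over the 20 regulatory genes, -0.31 over the 5 activators and 0.08 over the 4 core assembly chaperones, and -0.03 over all tested genes. With equal FPKM sums in all libraries, which puts the median of all tested genes at -0.30, those of the Psmd genes (-0.22), the regulatory genes (-0.29) and the core assembly chaperones (-0.25) were below 0. In limma 0 of the 49 genes passed (0% of all tested genes). At an unadjusted p under 0.05, 1 was higher (Psmd5; 1.13% of tested genes) and 0 were lower (1.06%). A higher mean in CROC+K was found for 21 of 49 (47.3% of tested genes). The libraries did not overlap, with CROC+K higher, for 7 (9.66%), namely Psma8, Psmb3, Psmb5, Psmb6, Psmd5, Psmd9 and Psmg4, and with CROC+K lower for 0 (9.47%).

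This picture depended on CROC+K replicate 1. Relative to the FOC+K mean the median of the Psma genes was 0.29 in replicate 1, -0.99 in replicate 2 and -0.86 in replicate 3. That of the base ATPases was 0.63, -0.16 and -0.65, while that of the Psmd genes was 0.18, 0.04 and 0.19. Without replicate 1 the median of the core genes was -0.55 and 8 proteasome genes were lower at an unadjusted p under 0.05 (5.93% of tested genes), with Psmd13 among them resting on its listed 0, and 1, Psmd5, was higher (6.12%); 0 passed the threshold in limma. With replicate 1 alone, in the libraries of high Rn45s, the median of all 49 was 0.27, against -0.11 with all libraries. Rn45s, Kdm4a and the 2-cell markers moved with this split of CROC+K, as given above, and their part in it was not tested.

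**Figure D3:**
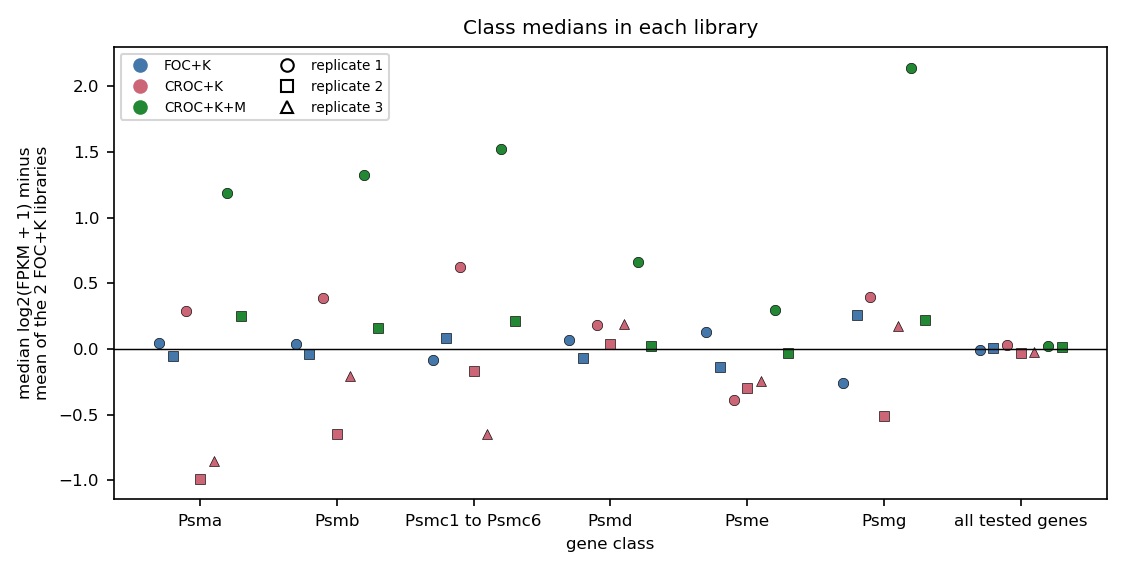
For each gene class and library, the median over the class of log2(FPKM + 1) minus the mean of the 2 FOC+K libraries; colour gives the group and shape the replicate, and the last column holds all 12271 tested genes. The Psma median is 0.29 in CROC+K replicate 1 but -0.99 and -0.86 in replicates 2 and 3, and CROC+K+M replicate 1 is the highest library in each of the 6 gene classes drawn.

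Setting CROC+K+M beside CROC+K addresses the effect of melatonin after vitrification. Core genes had higher means with melatonin in 17 of 18 cases (median log2 difference 0.97), as did 6 of 6 base ATPases (0.92) and 4 of 4 core assembly chaperones (1.15). The Psmd genes (10 of 14, median 0.33) and activators (4 of 5, median 0.15) differed less. The 3 base assembly chaperones, which are counted among the Psmd genes, had lower means (median -0.47). Over all tested genes the median was 0.06. With equal FPKM sums the activators were at -0.01 and all tested genes at -0.14. In limma 0 of 49 genes passed (0% of tested genes). At an unadjusted p under 0.05, 11 were higher (6.69% of tested genes), of which 6 encode core subunits, 2 regulatory subunits, 1 an activator and 2 core assembly chaperones, and 0 were lower (3.75%). Psmd13, with its listed 0 in CROC+K, is 1 of these 2 regulatory genes. A higher mean was found for 42 of 49 (54.1%). The libraries did not overlap, with melatonin higher, for 11 (12.3%) and, with melatonin lower, for 1 (11.2%), Psmd9.

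Part of this came with the library of high trophectoderm markers, CROC+K+M replicate 1. The core depended on it less than the base ATPases and the core assembly chaperones did. Without that library, 32 of 49 genes had a higher mean (52.3% of tested genes). These were 15 of 18 core genes, 10 of 20 regulatory genes, 3 of 5 activators and 4 of 4 core assembly chaperones. At an unadjusted p under 0.05 in limma, 2, Psmd14 and Psme2, were higher (4.01%), and 1, Psmd1, was lower (4.38%). The medians were then 0.69 for the core, 0.21 for the base ATPases, -0.05 for the Psmd genes, 0.13 for the activators, 0.40 for the core assembly chaperones and -0.74 for the base assembly chaperones, against 0.03 for all tested genes. The Psmd median includes the 3 base assembly chaperones, at -0.06 (Psmd5), -0.74 (Psmd9) and -1.03 (Psmd10). Relative to the FOC+K mean, the core median was 0.16 in CROC+K+M replicate 2, and 0.34, -0.73 and -0.51 in CROC+K replicates 1, 2 and 3. As a share of all FPKM, the standard core subunits of CROC+K+M replicate 2 (0.490%) were below those of FOC+K (0.517% and 0.542%). In CROC+K that share was 0.639%, 0.265% and 0.339%. Leaving out replicate 2 instead, so that replicate 1 alone stood for melatonin and was assumed to vary like the other groups, 7 genes passed the threshold, among them Psmd14, where 5.36% of all tested genes passed (4 and 4.45% against FOC+K). CROC+K+M replicate 2 by itself was above all 5 libraries without melatonin in 10 of 49 genes, where 21.2% of tested genes were, and below them in 3, where 19% were. The trophectoderm markers of replicate 1 and the lower summed oocyte and maternal markers of both melatonin libraries moved with the differences, and their part in them was not tested.

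**Figure D4:**
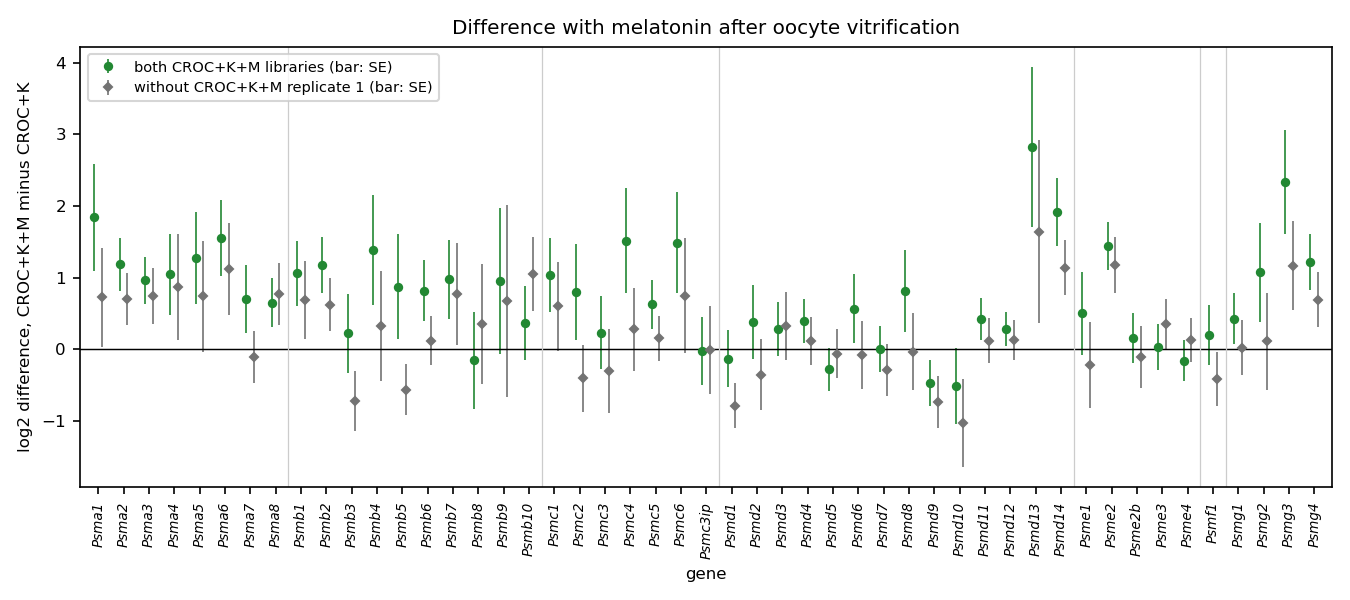
Log2 difference of CROC+K+M from CROC+K for each tested proteasome gene with limma's standard error as the bar, with both melatonin libraries (green circles) and without replicate 1 (grey diamonds). Most green points lie above 0 (42 of 49), against 32 of 49 grey points. Psmb3, Psmb5 and Psmc2 are among the genes whose points move below 0 without replicate 1, while Psmd14 goes from 1.92 to 1.14 and Psme2 from 1.44 to 1.18.

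Setting CROC+K+M beside FOC+K compares melatonin after vitrification with fresh oocytes and shares libraries with both comparisons above. All 20 regulatory genes and 17 of 18 core genes had higher means in CROC+K+M, with medians of 0.53 and 0.74, and the 4 core assembly chaperones a median of 1.15. Psme3 and Psme4 had lower means. In limma 0 of 49 passed (0% of tested genes). At an unadjusted p under 0.05, 7 were higher (4.46%), of which Psmg4 and Psma8 had the smallest p, and 0 were lower (2%). Psma8 was below the filter value in FOC+K, as given above. A higher mean was found for 46 of 49 (52.9%). The libraries did not overlap, with CROC+K+M higher, for 17 (21.3%) and lower for 1 (19.8%), Psme4. Without CROC+K+M replicate 1, 31 had a higher mean (51.3%), 2 were higher at an unadjusted p under 0.05 (2.62%), Psma8 and Psmg4, 0 were lower (2.53%), and the median of all 49 was 0.13, against 0.64 with it. With the FPKM of each library scaled to the same sum, the median was 0.066 for the proteasome genes, -0.06 for the regulatory genes and -0.44 for all tested genes.

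Other genes of the pathway were read from lists by function. Of 17 proteasome partners not named Psm, 10 had a higher mean with melatonin than in CROC+K and 3 were higher at an unadjusted p under 0.05, against the 54.1% and 6.69% of all tested genes; without CROC+K+M replicate 1 these were 9 and 2. Shfm1, the small lid subunit also known as Sem1, was at 164 and 208 in the FOC+K libraries, at 193, 105 and 171 in those of CROC+K, and at 1299.8 and 398 in those of CROC+K+M. Usp14, a deubiquitinase bound to the base, was at 11.4 and 9.90 in the FOC+K libraries, at 7.83, 3.33 and 5.59 in those of CROC+K, and at 42.9 and 10.8 in those of CROC+K+M. Pomp, the maturation factor of the core, named after its values were seen, was at 128 and 153 in the FOC+K libraries, at 196, 92.8 and 105 in those of CROC+K, and at 710.5 and 197 in those of CROC+K+M. All 3 had their highest value in CROC+K+M replicate 1, and CROC+K+M replicate 2 was above all libraries without melatonin for Shfm1 and, by a small margin, for Pomp. The differences were 2.24 ± 0.51, 1.85 ± 0.58 and 1.58 ± 0.56, and 1.39, 0.90 and 0.66 without replicate 1. For CROC+K against FOC+K, 6 of these 17 had a higher mean (47.3% of tested genes) and 0 reached an unadjusted p under 0.05.

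Of 11 tested regulators of proteasome gene transcription, 7 had a higher mean with melatonin than in CROC+K (54.1% of tested genes). For CROC+K against FOC+K, 4 had a higher mean and 7 a lower one (47.3% of tested genes higher), with a median of -0.20. For CROC+K+M against FOC+K, 4 were again higher and 7 lower (52.9% higher), with a median of -0.25. In limma 0 had an unadjusted p under 0.05 in any of the 3 comparisons with all libraries. Nfe2l1, the factor known to raise proteasome genes when the proteasome is inhibited, was at 7.53 and 7.94 in the FOC+K libraries, at 8.90, 9.89 and 9.70 in those of CROC+K, and at 8.40 and 9.68 in those of CROC+K+M. Both FOC+K libraries were below all 5 others, which overlapped between CROC+K and CROC+K+M. Nfe2l1 was not among the 2 genes of this list with the smallest p in any comparison.

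Of the ubiquitin genes and activating enzymes, Ubb, a polyubiquitin gene, was at 863 and 626 in the FOC+K libraries, at 698, 2017 and 1951 in those of CROC+K, and at 1479.8 and 895 in those of CROC+K+M. CROC+K replicates 2 and 3, below replicate 1 for Psma1 to Psma7, were the highest libraries for Ubb. For CROC+K against FOC+K, 5 of 6 genes had a higher mean (47.3% of tested genes), with a median of 0.45, and 0 had an unadjusted p under 0.05 in limma. For CROC+K+M against CROC+K, 3 of 6 had a higher mean, and Uba1, the main ubiquitin activating enzyme, was higher at an unadjusted p under 0.05 (1.06 ± 0.37); none of the 6 passed in any comparison.

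Further lists were read for CROC+K+M against CROC+K, beside the 54.1% of all tested genes with a higher mean and the 6.69% higher and 3.75% lower at an unadjusted p under 0.05. Among 27 ubiquitin-conjugating enzymes 16 had a higher mean and 2 were higher at that p, Ube2l3 (1.81 ± 0.57, and 0.87 without CROC+K+M replicate 1) and Ube2v2 (0.89 ± 0.35, and 0.59). Without that library 0 were higher and 1 was lower. Among 16 genes of the p97 segregase and its cofactors, which pull ubiquitin-tagged proteins out of complexes, 12 had a higher mean and 2 were higher, Faf1 (1.65 ± 0.35, and 1.28 without replicate 1) and Ubxn2a (0.88 ± 0.34, and 0.63). Among 21 core subunits of the SCF and APC/C ligases, 16 had a higher mean, 3 were higher and 1 was lower, with Cdc26 (1.15 ± 0.35) and Anapc10 (1.07 ± 0.35) leading. Without replicate 1 the latter were at 0.69 and 0.54, and 0 genes were higher and 1 was lower. Of 8 tested genes of class I antigen processing, which uses peptides cut by the proteasome, 5 had a higher mean. H2-K1, whose reads may be shared with close copies, was at 3.90 and 5.43 in the FOC+K libraries, at 1.98, 3.15 and 1.99 in those of CROC+K, and at 12.0 and 10.97 in those of CROC+K+M. Both melatonin libraries were above the other 5, and the difference was 1.91 ± 0.34, and 1.84 without replicate 1 (limma adjusted p = 0.408 with all libraries). No gene of these lists passed the threshold.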

How the data were processed

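FPKM values were used as deposited by the authors, in a table of 24319 rows with a column for each of 7 libraries. STAR 2.5.2b, Cufflinks 2.2.1, Cuffnorm, R 3.3.2 and the mouse build mm9 stand in the submitters' processing notes. The tool that wrote the table, the annotation, the use of strand and the scaling between libraries: each is not given in the sources used here. Groups and replicate numbers were read from sample titles. Depth is not given; steps between low values in a library, relative to FOC+K replicate 1, were 0.642 to 1, so that a single fragment was worth the least in CROC+K+M replicate 2 and the most in FOC+K replicate 1 if a step is 1 fragment.

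Small RNA and ribosomal RNA precursor rows (1275) were not tested, and the 12271 genes with an FPKM of at least 1 in 2 or more libraries entered as log2(FPKM + 1). limma 3.58.1 in R 4.3.3 was fitted to the 7 libraries together with an intensity trend and a term for group, which leaves 4 residual degrees of freedom. P-values are two-sided and were adjusted by the Benjamini-Hochberg method over all tested genes, with a threshold of 0.05. The test was checked on simulated data. Other computing used Python 3.11.15 and pandas 2.3.3, and plots matplotlib 3.10.9.

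The members, the lists and the tests were chosen with earlier results of these data known. Every proteasome gene could be named; values in each library are given for catalytic, germ cell, activator, inhibitor and assembly genes, for Psmd2, Psmd4 and Psmd14, and for up to 3 genes with the smallest p per letter class and comparison. Of the other lists, up to 2 genes with the smallest p were named, except 1 gene that is not reported here. Replicate numbers were not taken as pairs, since deviations from group means of same-numbered libraries correlated between -0.457 and 0.030. Transcript lengths for 1 alternative came from GENCODE vM21, and other alternatives changed the pseudocount, filter, scaling, weights and libraries used.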

Additional observations from a re-analysis of the deposited data

How the results depend on the processing

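In every alternative tried but 1, 0 proteasome genes passed the threshold in limma; without CROC+K+M replicate 2, 7 passed in the contrast with CROC+K (5.36% of all tested genes) and 4 in that with FOC+K (4.45%), with replicate 1 alone. The median over the 49 genes for CROC+K against FOC+K was -0.11 and 0.27 with the libraries of high Rn45s only; leaving out a library gave -0.24 to -0.03. For CROC+K+M against CROC+K it was 0.70, and leaving out a library gave 0.15 (without CROC+K+M replicate 1) to 1.22 (without CROC+K+M replicate 2). For CROC+K+M against FOC+K it was 0.64, with 0.20 after quantile normalization, 0.066 with equal FPKM sums and 0.13 to 1.14 when a library was left out. Equal sums moved the median of all tested genes to -0.30, -0.14 and -0.44 in the 3 comparisons. Removing a trend with transcript length, chosen after seeing the data, gave -0.18, 0.60 and 0.49. With the replicate block the medians were -0.04, 0.75 and 0.64 and 0 genes passed, though the numbers do not pair the samples.

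Among the genes named for their p-value, signs turned for CROC+K against FOC+K in Psmc5 (-0.088) and Psmc3 (-0.043) with equal FPKM sums, and in Psmc3 without CROC+K replicate 1 (-0.15, against 0.63 without CROC+K replicate 3). With the libraries of high Rn45s only they turned in Psma4 (0.42), Psma1 (0.056), Psmb7 (0.35), Psmb1 (0.32), Psmc1 (0.69) and Psmd13 (0.53). For CROC+K+M against FOC+K, Psma3 was at -0.013 after quantile normalization. The cause of these turns was not tested. With 4 residual degrees of freedom and 2 or 3 libraries a group, precision is limited, and genes under an FPKM of about 1 rest on few fragments.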
